A study of Mus musculus with 4 samples.

Results

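The genes described here are 6 of the 32285 genes counted in each library: the neutrophil-attracting CXC chemokines Cxcl1, Cxcl2 and Cxcl3, their receptor Cxcr2, the retention receptor Cxcr4 and its ligand Cxcl12. They were taken by symbol, and each of the 6 symbols matched 1 gene. Cells came from tibial fracture calluses of male C57BL/6J mice aged 20 months, harvested on day 7 after treatment with a microgel. The 2 control libraries came from mice given the empty microgel and the 2 adenosine libraries from mice given the microgel loaded with adenosine, so fracture, age, sex and carrier gel were common to both groups. Red blood cells were lysed and viable cells were sorted by exclusion of propidium iodide before droplet capture, a gate that sets which cells could be seen. The labels name the tissue both as fracture callus and as bone marrow, and do not say whether a library is 1 animal or a pool, so p-values measure only the spread between these libraries.

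Neutrophils leave the bone marrow under the pull of 2 opposed receptor systems. Cxcl12, made by stromal and vascular cells, holds Cxcr4-bearing cells in the marrow, whereas Cxcl1, Cxcl2 and Cxcl3 act on Cxcr2 of maturing neutrophils and draw them into blood and injured tissue. Inflammatory signals through NF-kappaB raise transcription of the 3 ligands, and neutrophils that have reached a wound can make Cxcl2 themselves, while aged neutrophils carry more Cxcr4 and less Cxcr2.

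The 3 ligand genes lie on mouse chromosome 5 and are all transcribed from the + strand. In GENCODE M21 (build mm10), the protein-coding genes are Cxcl3 at chr5:90786103-90789600, Cxcl1 at chr5:90891241-90893115 and Cxcl2 at chr5:90903871-90905938. Cxcl1 ends 10755 bases before Cxcl2 begins. Cxcr2 lies at chr1:74153989-74161246 on the + strand, Cxcr4 at chr1:128588199-128592293 on the - strand, and Cxcl12 at chr6:117168535-117181367 on the + strand.

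The sequence just before the start site of each ligand gene is shown because Cxcl2 and Cxcl3 were highest in the same neutrophil stage in 3 of the 4 libraries, and Cxcl1 is their neighbour. The bases run 5′ to 3′ on the + strand of GRCm38.p6, from RefSeq. Each begins 120 bases before the RefSeq start site and stops before the first transcribed base of RefSeq or GENCODE, whichever comes first. They span chr5:90891125-90891240 for Cxcl1, chr5:90903779-90903870 for Cxcl2 and chr5:90785981-90786100 for Cxcl3, and all lie outside the transcript. Capitals mark matches to the kappaB-type motif GGGNNNTTC on either strand, where overlapping matches run together.
Cxcl1: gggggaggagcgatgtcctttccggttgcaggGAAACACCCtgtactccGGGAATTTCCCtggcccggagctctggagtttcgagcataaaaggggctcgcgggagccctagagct
Cxcl2: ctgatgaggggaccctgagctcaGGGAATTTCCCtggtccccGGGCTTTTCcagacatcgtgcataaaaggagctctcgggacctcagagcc
Cxcl3: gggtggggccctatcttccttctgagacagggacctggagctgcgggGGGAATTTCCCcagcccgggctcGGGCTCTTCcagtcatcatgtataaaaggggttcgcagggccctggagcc

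The longest run of letters common to the 250 bases before all 3 start sites was GGGAATTTCCC (11 bases). It began 71 bases before the start of Cxcl1, 97 before Cxcl2 and 73 before Cxcl3. Of 32851 mouse promoter windows of 300 bases in the same table, 14 held it on either strand, or 0.0426%. The shorter motif GGGNNNTTC was in 13.96% of windows. It also matched once in the Cxcr2 window and once in the Cxcr4 window, and did not match in the Cxcl12 window. No member's window held the AP-1 motif TGANTCA, found in 7.81% of windows, or the cAMP response element TGACGTCA, found in 1.79%. A match is a description of letters and not of binding.

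After filtering, 31280 of 35274 barcodes were kept, 6284 to 8677 per library, with 32277757 to 68117846 deposited UMIs (unique molecular identifiers, each counted as 1 RNA molecule) and a median of 2992.5 to 4714 UMIs per kept cell. Cells were assigned to classes by marker genes that include none of the 6 members. Neutrophils were 54.5% to 74.3% of cells and were divided into dividing pre-neutrophils, immature post-mitotic cells and mature cells by granule and maturity genes. A mature neutrophil was called activated when its score over 9 activation genes, such as Acod1, Il1a, Tnf and Ccl3, was at least 0.3, and resting otherwise. Control 2 stood apart: 56.7% of its mature neutrophils were activated, against 3.88%, 3.34% and 1.62% in control 1, adenosine 1 and adenosine 2. It held 198 immature neutrophils against 1818 to 2338 in the others, and 2 promyelocytes against 199 to 369. Libraries shared 119 barcodes in all, and the labels name no batch. Levels are given as CPM, the UMIs of the gene per 1000000 UMIs of the class in that library. Since UMIs count transcript ends, levels of different genes are compared without a length correction.

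Cxcl2, a neutrophil attractant that leukocytes themselves make, was the most abundant member in activated mature neutrophils of each library, and those cells held 40.4% to 83.6% of its UMIs. Its level in those cells was 11979 CPM in control 1, 20552 in control 2, 8548 in adenosine 1 and 2517 in adenosine 2. In resting mature neutrophils it was 69.7, 2506, 73.6 and 20.9 in the same order. In each of the 4 libraries the activated cells were far above the resting cells, by 172-fold, 8.2-fold, 116-fold and 121-fold. Adenosine 2 rested on 35 activated cells and 202 Cxcl2 UMIs, so its activated level is the least precise of the 4.

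The activated cells were few outside control 2 yet held much of each library's Cxcl2. They were 1.43% of the cells of control 1 and 73.2% of its Cxcl2 UMIs. They held 83.6% of the Cxcl2 UMIs of control 2, 40.4% of those of adenosine 1 and 50.2% of those of adenosine 2. Adenosine 1 had another 36.2% in cells that the markers assigned to no class. These were mainly 63 cells that fell in neutrophil clusters, with a median activation score of 0.426 and 1708 Cxcl2 UMIs. Control 2 likewise had 168 unassigned cells in neutrophil clusters with 10178 Cxcl2 UMIs. The median activation score of those cells was 0.432, and their Cxcl2 is not part of the activated class.

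Within the activated class Cxcl2 was uneven between cells. The highest single cell had 1297 Cxcl2 UMIs in control 2 and 224 in control 1. The 10% of activated cells with most Cxcl2 held 51.6%, 53.8%, 67.6% and 69.3% of the class's Cxcl2 in control 1, control 2, adenosine 1 and adenosine 2.

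Activated and resting mature neutrophils were compared with edgeR on summed UMIs, with the library as a block, a comparison added after the data had been seen. Of 9192 genes tested, 17.1% were called at an adjusted p under 0.05, and 3 of the 4 members tested were among them. Cxcl2 rose by 6.04 ± 0.53 (log2, SE, n = 4 libraries, edgeR adjusted p = 1.69e-09). Without control 2 the difference was 6.83. The stage was defined by activation genes whose levels move with Cxcl2, so this difference describes the stage and is not independent of how it was drawn.

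**Figure D1:**
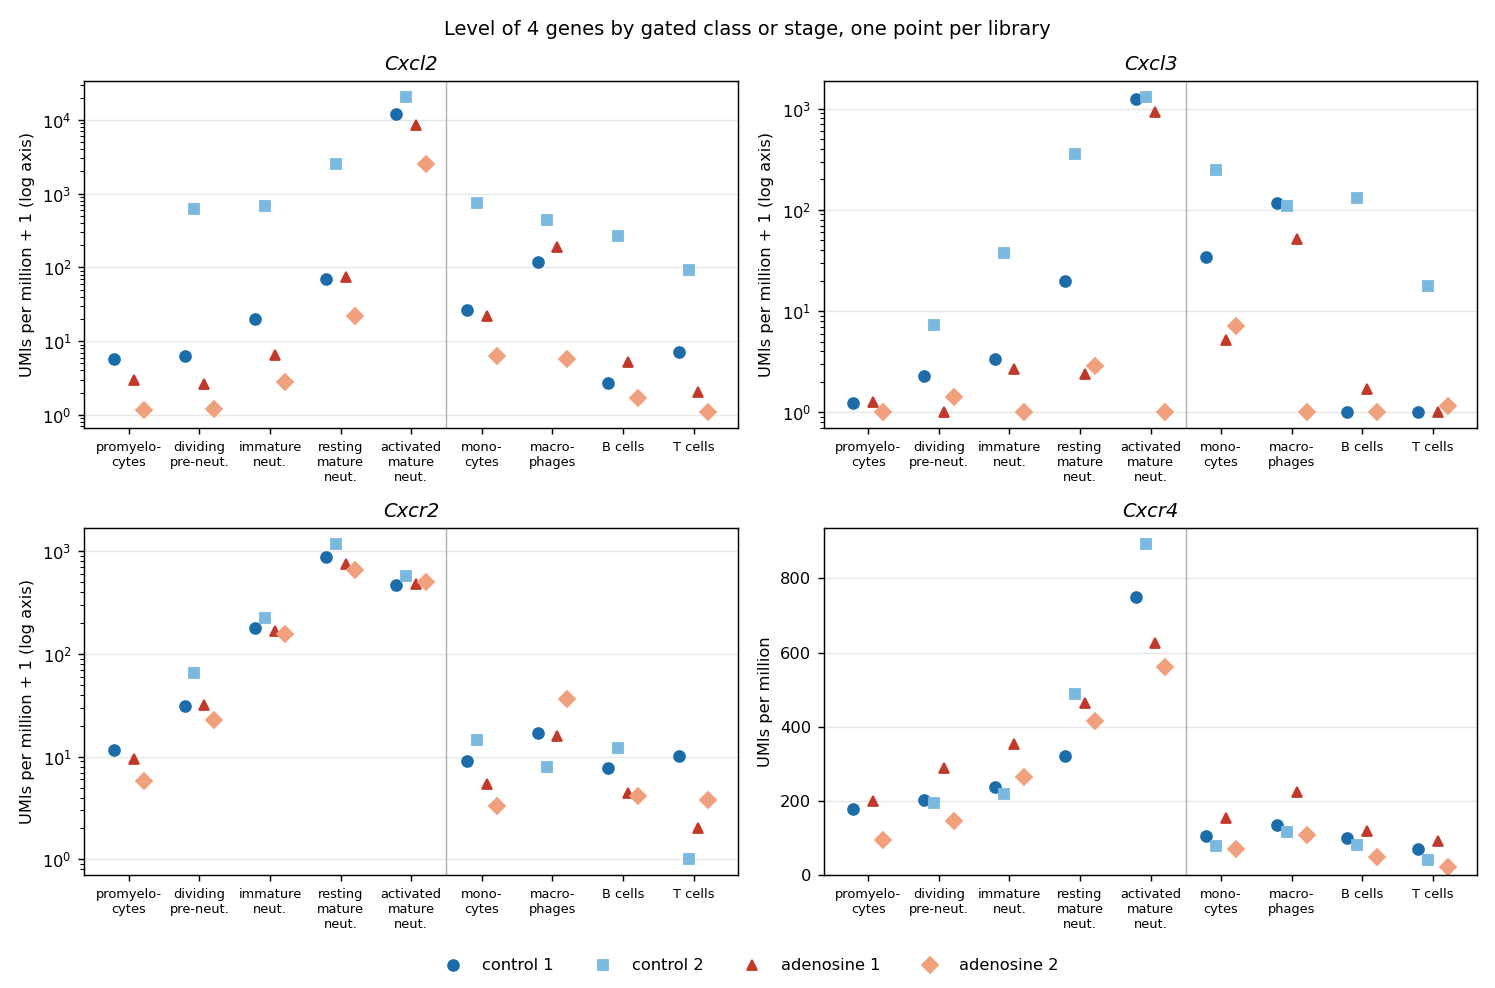
Level of Cxcl2, Cxcl3, Cxcr2 and Cxcr4 (CPM; plus 1 on a log axis for the first 3, linear for Cxcr4) in gated classes and neutrophil stages, with 1 point per library for classes of 20 cells or more. Cxcl2 peaks in activated mature neutrophils in every library (2517 to 20552), Cxcr2 peaks in resting mature neutrophils, and control 2 (square) lies above the others for Cxcl2 and Cxcl3 in all classes where it is shown, except Cxcl3 in macrophages.

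Cxcl2 in control 2 was also raised outside the activated cells. Over all cells it was 6709 CPM there, against 96.6, 91.2 and 6.93 in control 1, adenosine 1 and adenosine 2, or 69.4-fold above control 1. Between the 2 controls the gap was 36.0-fold in resting mature neutrophils but 1.72-fold in activated ones. Of the 12662 Cxcl2 UMIs in resting cells of control 2, 8591 lay in the 758 cells with scores of 0.2 to 0.3, just under the activation limit, where control 1 had 192 cells. At scores under 0.1 the levels were 685 CPM in control 2 and 33.8 in control 1. Control 2 had 2511 activated cells and control 1 had 124.

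Cxcl2 outside mature neutrophils was set beside its level in B cells as a measure of background. B cells, which are not known as a Cxcl2 source, had 269 CPM in control 2 and 0.694 to 4.17 in the other libraries. Thinned to 1000 UMIs per cell, 9.40% of the B cells of control 2 had a Cxcl2 UMI, against 12.9% of its immature neutrophils, 20.5% of its monocytes and 47.1% of its resting mature neutrophils. Before thinning these shares were 28.6%, 51.5%, 59.6% and 63.1%, at median depths of 3863, 6022, 9566 and 2488 UMIs. In control 1 the thinned shares were 0.112% of B cells, 0.882% of immature neutrophils, 0.934% of monocytes and 3.07% of resting mature neutrophils. Resting mature neutrophils were above B cells in all 4 libraries, with 4.75% against 0.457% in adenosine 1 and 1.11% against 0.0899% in adenosine 2. Immature neutrophils of adenosine 1, at 0.437%, were not above B cells. A low share of this kind is not read as expression, and whether it is background RNA was not tested.

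Cxcl3, a close relative of Cxcl2 that also acts on Cxcr2, was highest among neutrophil stages in the activated mature cells in 3 of the 4 libraries, at a lower level than Cxcl2. In activated mature neutrophils it was 1242 CPM in control 1, 1305 in control 2 and 925 in adenosine 1. It had no UMI in the 35 activated cells of adenosine 2, which allows a level of up to 37.4 CPM (the limit of 3 UMIs). In resting cells it was 18.7, 352, 1.42 and 1.88 in control 1, control 2, adenosine 1 and adenosine 2. Activated cells exceeded resting cells in 3 of 4 libraries, and the edgeR difference was 5.18 ± 0.70 (log2, SE, n = 4, adjusted p = 2.62e-06). Without control 2 it was 6.62. DESeq2 gave 4.40 with an adjusted p of 0.155, past the threshold in edgeR alone.

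The balance of the 2 chemokines was described by the ratio of their UMIs. Activated neutrophils had 9.64, 15.8 and 9.24 Cxcl2 UMIs for each Cxcl3 UMI in control 1, control 2 and adenosine 1. Resting mature neutrophils had 3.73, 7.11, 51.9 and 11.1 in control 1, control 2, adenosine 1 and adenosine 2. Each of these adenosine values rested on 9 Cxcl3 UMIs. In adenosine 1 the resting ratio was thus above the activated one. Monocytes had 0.758, 3.01, 5.04 and 0.848 in control 1, control 2, adenosine 1 and adenosine 2. Macrophages had 1.02, 4.00 and 3.71 in the first 3 libraries. Single cells carried several of these ratios: 1 macrophage of adenosine 1 held all 41 Cxcl3 UMIs of its class, the highest held 121 of the 152 Cxcl2 UMIs there, and 1 monocyte of control 2 held 1826 of 6454 Cxcl2 UMIs. The ratio of activated neutrophils was thus above that of monocytes and macrophages in each of the 3 libraries where it could be formed, with no test of the difference and with those few cells in it.

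The share of Cxcl3 UMIs in monocytes was not alike in the libraries. Monocytes held 46.1% of the Cxcl3 UMIs of control 1 and 87.6% of the 105 in adenosine 2, but 14.2% of those in control 2. These UMIs lay in 29 of 1413 monocytes in control 1, 4 of 1175 in adenosine 2 and 167 of 882 in control 2, so in the first 2 the share describes a few cells and not the class. Cxcl3 in monocytes was 33.3, 248, 4.13 and 6.15 CPM, and in macrophages 117, 109, 50.6 and 0, in the order control 1, control 2, adenosine 1 and adenosine 2. Macrophages were few, 40 to 255 per library, and those with a Cxcl3 UMI were 4 of 47 in control 1, 43 of 255 in control 2 and 1 of 81 in adenosine 1. B cells of control 2 had 129 CPM of Cxcl3, from 46 UMIs in 5 of 77 cells, above the level of its macrophages. Thinned to 1000 UMIs per cell, 2.96% of these B cells had a Cxcl3 UMI, against 6.40% of the macrophages and 8.39% of the monocytes of control 2. In the other libraries B cells had 0 or 1 Cxcl3 UMI. In GENCODE transcripts, Cxcl2 and Cxcl3 shared 126 words of 50 bases and neither shared any with Cxcl1. They lay at least 850 bases from the 3′ end in the Cxcl3 transcripts and at least 227 in those of Cxcl2, and reads inside them could not be assigned to 1 of the genes.

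Cxcl1, a neutrophil attractant made by many tissue cells, was scarce in these libraries. Over all cells it had 6, 157, 34 and 3 UMIs in control 1, control 2, adenosine 1 and adenosine 2. Activated mature neutrophils held 117 of those in control 2, in 33 of 2511 cells. In adenosine 1 they held 22, and these came from 2 cells, so that its level of 98.4 CPM describes those cells and not the class. The gene did not pass the filter on low counts in any comparison of stages or cell types.

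Neutrophils and monocyte-macrophages (monocytes, nonclassical monocytes and macrophages together) were compared within libraries. Of 12685 genes 65.4% were called, and 3 of the 4 members tested were, all higher in neutrophils, so the members' count stands beside a high background. Cxcl2 was higher in neutrophils by 3.49 ± 0.47 (log2, SE, n = 4, edgeR adjusted p = 0.0011), and by 3.00 without control 2. Cxcl3 did not pass, at 0.79 ± 0.78 (edgeR adjusted p = 0.403), and was 0.19 without control 2. In adenosine 2 all neutrophils held 11 Cxcl3 UMIs, a level of 0.611 CPM against 5.91 in monocyte-macrophages, while control 2 had 815 against 218.

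Cxcr2, the receptor for the 3 ligands, marked the later stages of neutrophil maturation. Its level was 30.2, 63.9, 30.9 and 21.8 CPM in dividing pre-neutrophils of control 1, control 2, adenosine 1 and adenosine 2. It was 178, 225, 167 and 155 in immature neutrophils. Resting mature cells had 870.1, 1182, 743 and 655. The 3 stages did not overlap across libraries. Promyelocytes, the granule-forming precursors before them, had 4.79 to 10.6 in the 3 libraries with more than 2 such cells.

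Both steps of this rise passed in edgeR, each beside a high background of called genes. From pre-neutrophils to immature cells, where 72.8% of 9721 genes were called, Cxcr2 rose by 2.81 ± 0.096 (log2, SE, n = 4, adjusted p = 2.57e-13). From immature to mature cells, where 49.2% of 10347 genes were called, it rose by 2.04 ± 0.14 (adjusted p = 0.000113). Without control 2 these were 2.88 and 2.13. In CPM the first rise was 5.9-fold in control 1, 3.52-fold in control 2, 5.42-fold in adenosine 1 and 7.1-fold in adenosine 2. All but the last were below the edgeR difference, which includes TMM scaling. The 3 members tested in the first step (Cxcl2, Cxcr2 and Cxcr4) and the 4 tested in the second (those and Cxcl3) were all called higher in the later stage. For Cxcl2 the first step rested on low levels in 3 libraries. Pre-neutrophils had 5.24, 623, 1.66 and 0.209 CPM and immature cells 19.2, 681, 5.53 and 1.80 in control 1, control 2, adenosine 1 and adenosine 2, and in adenosine 2 these were 1 and 15 UMIs. The edgeR difference was 0.94 ± 0.20 (2.18 without control 2, and -0.29 with stages taken from clusters). In adenosine 1 the thinned shares of both stages, 0.195% and 0.437%, were not above the 0.457% of B cells, so this step is not read as a gain of expression there. In the second step Cxcl2 rose by 4.97 ± 0.34 (5.20 without control 2). Cxcl3 rose by 4.61 ± 0.22 in the second step, and by 4.61 without control 2.

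Along the difference of the immature and mature marker scores Cxcr2 climbed bin by bin. In control 1 it went from 79.5 CPM in the least mature of 8 bins to 1020.3 in the most mature, rising at each of 7 steps. In adenosine 1 it went from 80.1 to 897, and in adenosine 2 from 67.9 to 766, again rising at each step. In control 2 it rose to 570.2 in a bin of 26 cells, was 396 in the first mature bin and then reached 1053. That dip lay where 127 to 674 cells per bin carried 20665 to 23059 Cxcl2 CPM. The mature markers behind the score include Stfa2l1, the gene most like Cxcr2 (Pearson's r = 0.982). The rise of Cxcr2 along the score and from immature to mature cells is thus not independent of how these were drawn.

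**Figure D2:**
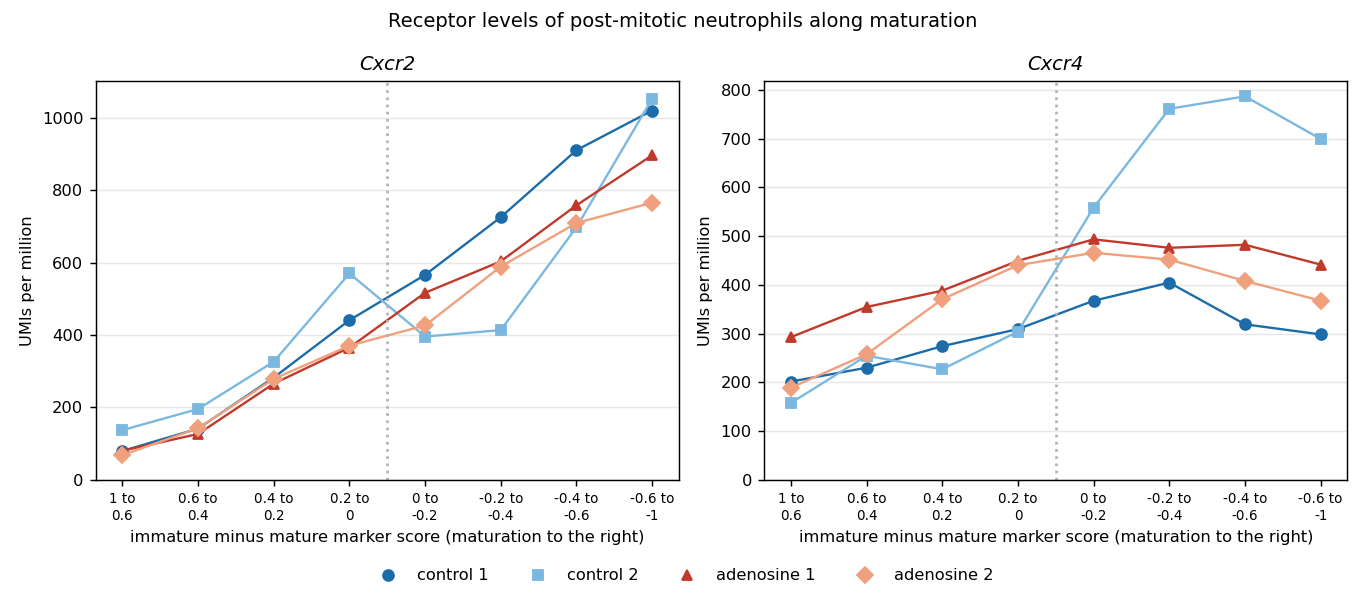
Cxcr2 and Cxcr4 (CPM) in post-mitotic neutrophils binned by the difference of the immature and mature marker scores, 1 line per library, with the dotted line at the boundary of the immature and mature stages. Cxcr2 rises at each step in 3 libraries, from 67.9 to 80.1 up to 766 to 1020.3, and dips in control 2, whose Cxcr4 exceeds that of the other libraries among mature cells.

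Activated mature neutrophils had less Cxcr2 than resting ones. The activated level was 469.6 CPM in control 1, 576 in control 2, 478 in adenosine 1 and 498 in adenosine 2. Each was below the resting level of its own library, at 0.540, 0.487, 0.644 and 0.761 of it. No activated value reached the lowest resting value of 655. In edgeR Cxcr2 fell by 0.86 on the log2 scale, with an SE of 0.23 (n = 4, adjusted p = 0.00839). Without control 2 it fell by 0.88 (adjusted p = 0.0103). The call was lost without control 1 (adjusted p = 0.0541) and without adenosine 2 (adjusted p = 0.0623), with falls of 0.90 and 0.91 on the log2 scale.

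Other classes had little Cxcr2. Monocytes had 2.34 to 13.6 CPM and B cells 3.12 to 11.2, so monocytes were near the B cell level. Neutrophils exceeded monocyte-macrophages by 6.68 ± 0.22 (log2, SE, n = 4, edgeR adjusted p = 2.42e-05), and by 6.61 without control 2. In CPM, without TMM scaling, neutrophils had 376, 726 and 326 in control 1, control 2 and adenosine 1. Monocyte-macrophages of these libraries had 8.49, 12.7 and 5.06, a smaller gap than the edgeR difference. Basophils or mast cells had 186, 158 and 214 in the 3 libraries with 43 or more such cells.

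Cxcr4, the retention receptor, was present at every stage and varied less than Cxcr2. Dividing pre-neutrophils had 202, 193, 289 and 147 CPM in control 1, control 2, adenosine 1 and adenosine 2. Immature cells had 237, 219, 354 and 264, and resting mature cells 322, 487, 464 and 415. Within each library the level rose from stage to stage, but the stages overlapped between libraries. The edgeR difference was 0.72 ± 0.084 for immature over pre-neutrophils (log2, SE, n = 4, adjusted p = 9.66e-07), and 0.72 without control 2. In CPM this rise was 1.17-fold in control 1, 1.13-fold in control 2, 1.22-fold in adenosine 1 and 1.8-fold in adenosine 2. All but the last were below the edgeR difference, which includes TMM scaling. For mature over immature cells the edgeR difference was 0.78 ± 0.23 (adjusted p = 0.0301). That second call was lost with classes taken from clusters (adjusted p = 0.0598) and without control 1 (0.0708), adenosine 1 (0.0584) or adenosine 2 (0.0683), with log2 differences of 0.68 to 0.89. Without control 2 the difference was 0.49 (adjusted p = 7.16e-05).

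Along the maturation score Cxcr4 did not follow Cxcr2 to the end. In control 1 it rose from 201 CPM to 405 and was 298 in the most mature cells. In adenosine 1 the highest bin was 493 and the last 442, in adenosine 2 these were 466 and 367, and in control 2 they were 787 and 699. Cxcr2 was at its highest in that last bin in all 4 libraries. Promyelocytes, which had hardly any Cxcr2, had 178, 199 and 93.4 of Cxcr4 in control 1, adenosine 1 and adenosine 2. Neutrophils exceeded monocyte-macrophages by 2.65 ± 0.36 (log2, SE, n = 4, edgeR adjusted p = 0.00118), and by 2.26 without control 2. In CPM the levels were 264 against 106 in control 1, 666 against 86.9 in control 2 and 377 against 159 in adenosine 1. The gap in control 1, adenosine 1 and adenosine 2 was smaller than the edgeR difference, which includes TMM scaling. Only in control 2 was it larger.

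In activated mature neutrophils Cxcr4 was 749, 892, 626 and 561 CPM in control 1, control 2, adenosine 1 and adenosine 2. Each value was above the resting level of its library, by 2.33-fold, 1.83-fold, 1.35-fold and 1.35-fold, and the 2 sets did not overlap. The edgeR difference of 0.65 ± 0.25 (log2, SE, n = 4) did not pass, with an adjusted p of 0.081, and was 0.47 without control 2. It passed with scaling by library size alone (0.75, adjusted p = 0.0118) and without adenosine 1 (0.84, adjusted p = 0.0145).

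The 2 receptors thus stood in opposite order in the 2 mature states. Resting cells had 2.70, 2.43, 1.60 and 1.58 Cxcr2 UMIs for each Cxcr4 UMI in control 1, control 2, adenosine 1 and adenosine 2. Activated cells had 0.627, 0.646, 0.764 and 0.889. The ratio was above 1 in resting and below 1 in activated cells in 4 of 4 libraries. A ratio shows unequal levels and not which of the 2 receptors moved.

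**Figure D3:**
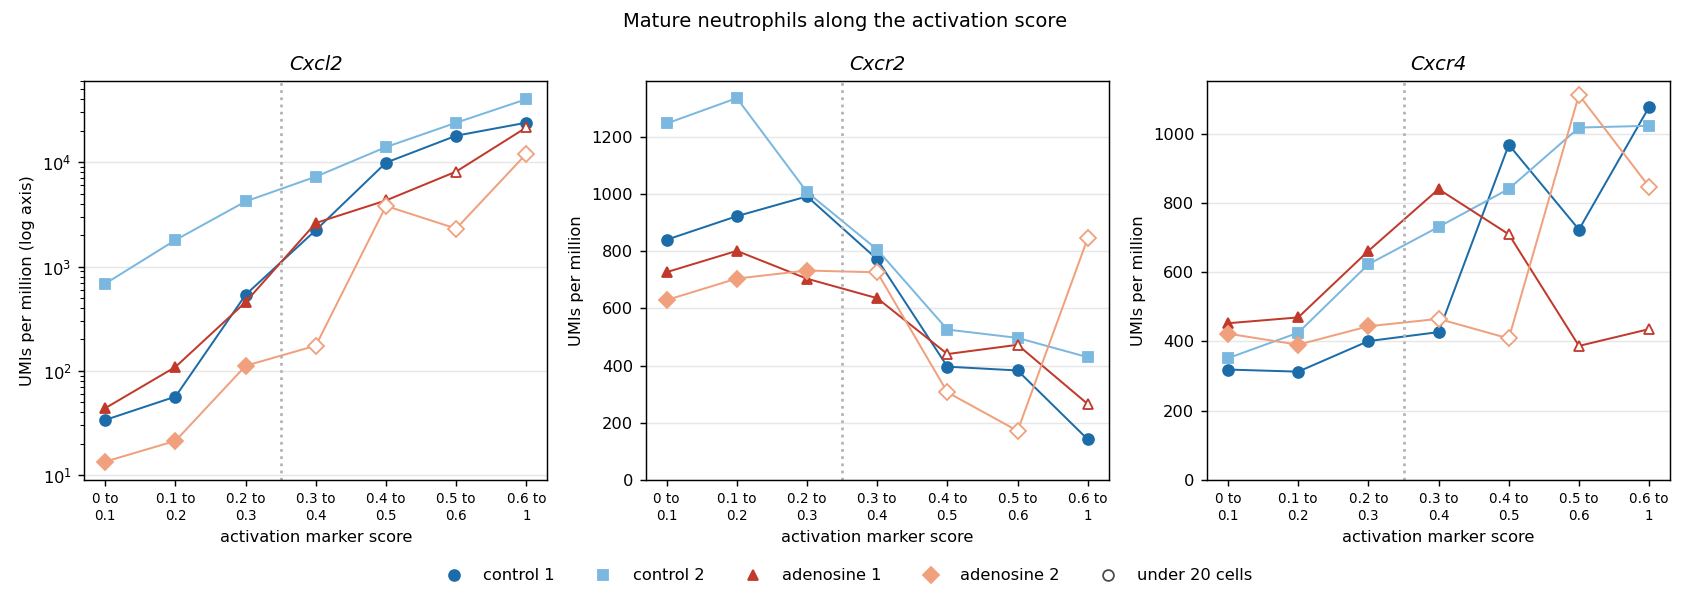
Cxcl2 (log axis), Cxcr2 and Cxcr4 in mature neutrophils binned by the activation score, in CPM, 1 line per library, with open symbols for bins under 20 cells and the dotted line at the limit between resting and activated cells. In control 2, with 462 or more cells in each bin, Cxcl2 rises from 685 to 40244, Cxcr2 goes from 1248 to 429 and Cxcr4 from 351 to 1023.

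Control 2 held 462 to 787 mature neutrophils in each bin of the activation score and is described first. Cxcl2 rose at each step, from 685 CPM at scores under 0.1 to 40244 at 0.6 and above. Cxcr2 first rose from 1248 to 1336 and then fell at each step to 429. Cxcr4 rose at each step from 351 to 1023. Other libraries did not show that course at each step. In control 1 Cxcr4 was 968, 723 and 1077 in the last 3 bins, and in adenosine 1 it reached 840 at scores of 0.3 to 0.4 and was 709, 387 and 435 in the 3 bins after it, of 18, 18 and 19 cells. In control 1, Cxcl2 went from 33.8 to 23948 and Cxcr2 from 840.5 through 992 to 141 across the same scale, the last bin with 21 cells. At scores of 0.4 to 0.5 the Cxcl2 levels of the 4 libraries were 9913, 13980, 4304 and 3809, from 27, 649, 18 and 11 cells. At scores under 0.1 they were 33.8, 685, 43.9 and 13.5.

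Cxcl12, the ligand of Cxcr4, was seen in few cells, and few stromal cells were captured. It had 4, 33, 18 and 7 UMIs in control 1, control 2, adenosine 1 and adenosine 2. In control 2, 28 of its 33 UMIs lay in 7 cells gated as stromal and 4 in 5 endothelial cells. In adenosine 1, 7 of 18 lay in 13 stromal cells and 4 in 6 endothelial cells. Control 1 and adenosine 2 had 1 stromal cell each, with no Cxcl12 UMI. The stromal level, 244 CPM in control 2 and 26.2 in adenosine 1, was far above the neutrophil level of 0.0446 in control 1 and 0.203 in adenosine 1. With 1 to 13 stromal cells per library, Cxcl12 could not be compared between the treatments at this depth.

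The comparison the study was built for, adenosine against control, was made over all cells, all neutrophils, mature neutrophils, immature neutrophils and monocyte-macrophages. Of the members, 4 to 6 passed the filter on low counts and 0 were called in these 5 comparisons, beside 0% of 10198 to 16368 genes tested (edgeR, 2 libraries against 2). Without the filter on low counts edgeR called Cxcl1, Cxcl2 and Cxcl3 lower with adenosine in neutrophils, among 653 of 20927 genes. At an unadjusted p under 0.05 there were 420 genes in all cells, 343 in neutrophils, 332 in mature neutrophils, 161 in immature neutrophils and 227 in monocyte-macrophages, and DESeq2 called 3, 3, 4, 4 and 4. In a bulk sum over all cells, fewer cells of a type and less RNA per cell cannot be told apart, so the levels within classes stand beside it.

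Over all cells the difference of adenosine minus control was -6.48 ± 2.49 for Cxcl2 and -5.91 ± 1.87 for Cxcl3 (log2, SE, n = 2 and 2 libraries), both with an edgeR adjusted p of 0.873. For Cxcl2, control 1 at 96.6 CPM was close to adenosine 1 at 91.2, while adenosine 2 had 6.93. Without control 2 the differences were -1.14 for Cxcl2 and -2.09 for Cxcl3 (edgeR adjusted p = 0.9999 for each).

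**Figure D4:**
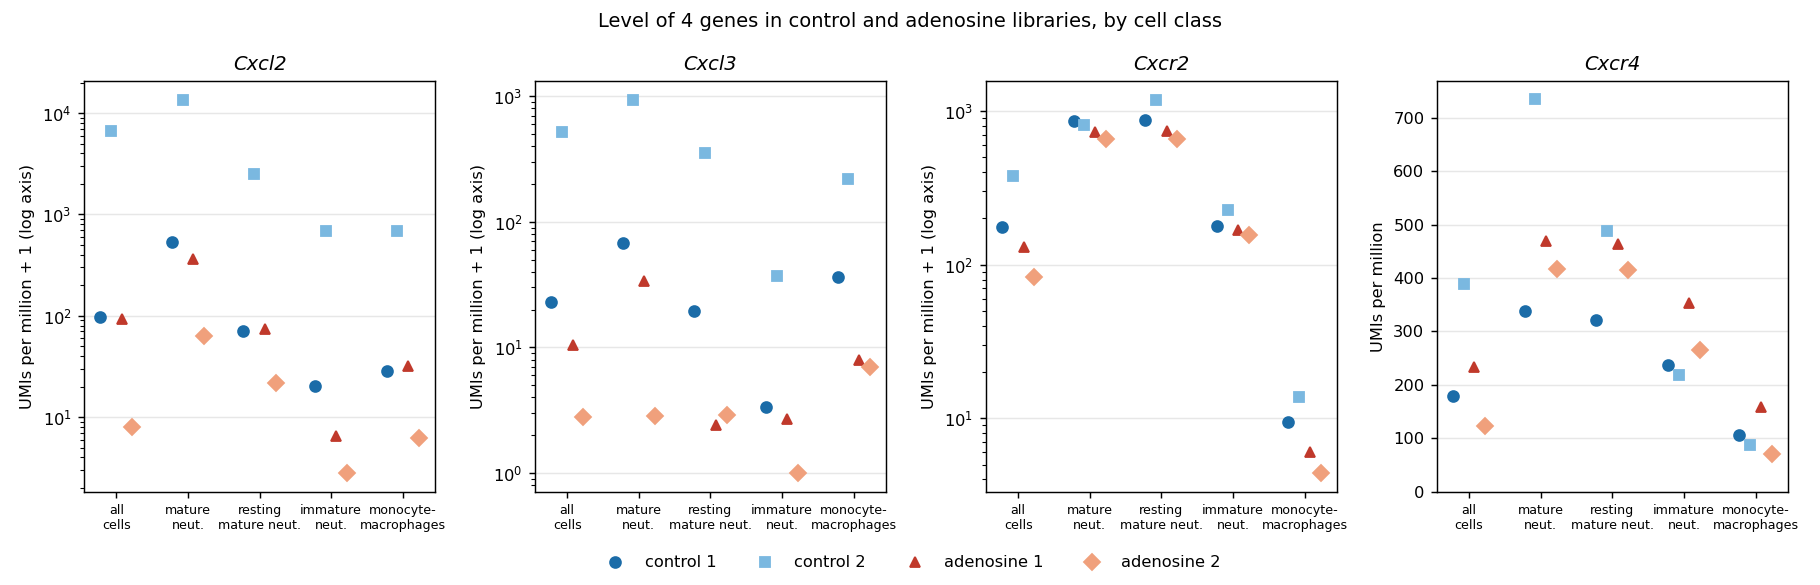
Level of Cxcl2, Cxcl3, Cxcr2 and Cxcr4 in the 2 control and 2 adenosine libraries (CPM; plus 1 on a log axis for the first 3, linear for Cxcr4), by cell class, with 1 point per library. Control 1 and adenosine 1 lie close for Cxcl2 over all cells (96.6 and 91.2), control 2 lies far above, and Cxcr2 is higher in both controls than in both adenosine libraries in each class shown.

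Among mature neutrophils Cxcl2 was 534 CPM in control 1, 13570 in control 2, 362 in adenosine 1 and 62.0 in adenosine 2. Both controls lay above both adenosine libraries, with an edgeR difference of -5.29 ± 1.78 (log2, SE, adjusted p = 0.882). Cxcl3 was 66.4, 936, 32.9 and 1.85, in the same order of groups, with -5.09 ± 1.77 (adjusted p = 0.882). Without control 2 these were -1.36 and -1.94. The share of all genes tested with both controls on 1 side of both adenosine libraries was not counted. Such an order is therefore a description only, for each member and class. In immature neutrophils Cxcl2 was 19.2, 681, 5.53 and 1.80, and the edgeR difference was -6.91 ± 1.59 (log2, SE, adjusted p = 0.9999), or -2.43 without control 2. The level of control 2 there is the one set beside its B cells above. Of its 924 Cxcl2 UMIs, 774 lay in 26 cells nearest the mature stage, at score differences of 0 to 0.2. Its less mature bins had 83.9, 159 and 104 CPM, below the 269 of its B cells.

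In resting mature neutrophils alone the Cxcl2 values of the groups overlapped, since control 1 at 69.7 lay below adenosine 1 at 73.6. Cxcl3 there was 18.7 and 352 in the controls and 1.42 and 1.88 with adenosine, and did not overlap. The differences were -4.79 for Cxcl2 and -6.79 for Cxcl3 (log2, edgeR adjusted p = 0.928 for each), in a comparison added after the data had been seen.

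In monocyte-macrophages Cxcl3 was 35.1 CPM in control 1, 218 in control 2, 6.94 in adenosine 1 and 5.91 in adenosine 2. The cells with a UMI were 34 of 1522, 213 of 1145, 12 of 1065 and 4 of 1249. Its edgeR difference was -4.47 ± 1.00 (log2, SE, adjusted p = 0.9997). DESeq2 called it, with -4.46 and an adjusted p of 0.00648. Both controls lay above both adenosine libraries. Without control 2 the difference was -2.45 (edgeR adjusted p = 0.502). Cxcl2 in the same cells was 27.6, 677, 31.1 and 5.14, and the groups overlapped.

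Cxcr2 was higher in both controls than in both adenosine libraries in immature and in resting mature neutrophils, but not in activated ones, and the difference did not pass. In resting mature cells the controls had 870.1 and 1182 CPM and the adenosine libraries 743 and 655. In immature cells they had 178 and 225 against 167 and 155. The edgeR difference was -0.34 ± 0.35 in mature and -0.51 ± 0.27 in immature neutrophils (log2, SE, adjusted p = 0.884 and 0.9999). Without control 2 it was -0.26 and -0.15. Over all cells the difference was larger, -1.64 ± 0.54 (edgeR adjusted p = 0.873) and -0.83 without control 2, where the share of neutrophils and of mature cells enters too.

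Cxcr4 showed no order between the groups that held across neutrophil stages. In immature neutrophils both adenosine libraries, at 354 and 264 CPM, lay above both controls, at 237 and 219. In activated mature neutrophils both controls, at 749 and 892, lay above both adenosine libraries, at 626 and 561. In resting mature cells the groups overlapped. The difference of Cxcr4 was -0.39 ± 0.52 in mature neutrophils and 0.25 ± 0.21 in immature ones (log2, SE, edgeR adjusted p = 0.898 and 0.9999). Adenosine 1 had the highest level of the 4 libraries in dividing pre-neutrophils, immature cells, monocytes, macrophages, B cells and T cells. Adenosine 2 had the lowest in 5 of those 6 classes. Without control 2 the difference in mature neutrophils was 0.43, the other way round. In resting cells alone it was 0.15.

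The change with adenosine was also set against the cell type, as a difference between neutrophils and monocyte-macrophages. None of the 5 members tested was called, beside 0% of 13672 genes (edgeR; 241 genes at an unadjusted p under 0.05, and 1 gene by DESeq2). For Cxcl2 the term was -1.58 ± 0.58 (log2, SE, adjusted p = 0.91), and -0.79 without control 2.

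Other genes of the pathway were counted by lists. Other ELR CXC ligands of mice were scarce: Ppbp, Cxcl15 and Cxcl5 each stayed under 1 CPM in mature neutrophils of every library. Ppbp reached 15.8 over all cells of control 2. Cxcl10, an interferon-inducible CXC ligand of other leukocytes, rose in activated cells by 6.65 ± 0.59 (log2, SE, edgeR adjusted p = 1.94e-09), with 194, 48.1, 680 and 361 CPM in control 1, control 2, adenosine 1 and adenosine 2 against 0.415, 4.35, 0.158 and 5.01 in resting cells. Its activated level was lowest in control 2, where that of Cxcl2 was highest. In control 1, adenosine 1 and adenosine 2 the activated level came from 124, 96 and 35 cells. Cells with a Cxcl10 UMI were not counted.

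Of 9 other chemoattractant receptors, 6 rose and 1 (Ltb4r1) fell from immature to mature neutrophils, with a list median of 1.06 against -0.03 over all genes tested and beside 49.2% of all genes called in either direction. From resting to activated cells, where 17.1% of all genes were called, 2 (Fpr3 and Ptafr) rose. The most abundant 4 were Ccr1, a CC chemokine receptor, C5ar1, the receptor for complement C5a, Ptafr, for platelet-activating factor, and Fpr2, a formyl peptide receptor. Ccr1 rose by 2.20 ± 0.18, C5ar1 by 1.06 ± 0.17 and Ptafr by 1.67 ± 0.27 with maturation (log2, SE, edgeR), whereas Fpr2 was at -0.22 ± 0.13 and did not pass. With activation Ptafr rose by 1.66 ± 0.25, while Ccr1 at 0.57 and C5ar1 at 0.48 did not pass. Fpr2 was at -0.28 and did not pass. Cxcr1, the other receptor of this ligand family, was rare, at 2.05 to 29.3 CPM in mature neutrophils.

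Of 16 genes for signalling and desensitization below CXC receptors, 8 fell and 2 rose from resting to activated cells, with a list median of -0.75 on the log2 scale against -0.10 over all genes tested and beside 17.1% of all genes called in either direction. Rgs2, which limits G protein signals, fell by 0.98 and Rac2, a GTPase of neutrophil migration, fell by 0.97, both on the log2 scale. Gnai2, an inhibitory G protein subunit, was at -0.64 and Dock2, an activator of Rac, at -0.02, and neither passed. Of 12 adhesion genes tested there, 3 rose and 4 fell, beside the same 17.1%, with a median of -0.32; Icam1 among the first and Cd177 among the second were markers used in the gates. Cd44, a hyaluronan receptor, rose by 1.08, while Selplg, the ligand of P-selectin, fell by 1.07 on the log2 scale.

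Of the 13 tested inducers and mRNA decay factors of the 3 ligands, 10 rose with maturation and 8 rose with activation and 0 fell in either, with list medians of 1.09 and 1.32 against -0.03 and -0.10 over all genes tested. Of all genes, 49.2% were called with maturation and 17.1% with activation, in either direction. Il1b, an inducer of the ligands, rose by 6.10 ± 0.38 with maturation and 1.52 ± 0.30 with activation (log2, SE, edgeR). Nfkbia, an NF-kappaB target and inhibitor, rose by 2.89 ± 0.26 with activation. Tnf is in this list and among the genes that defined activation, so its place in the count was fixed by the stage. Of 17 dissociation and stress genes tested, 14 rose with maturation and 8 with activation, beside the same 49.2% and 17.1%, with list medians of 2.07 and 0.56. The summed level of that list in mature neutrophils was 4638 CPM in control 1, 9007 in control 2, 5114 in adenosine 1 and 4684 in adenosine 2, and 8 macrophage markers summed to 169, 419, 156 and 131. Their part in the Cxcl2 level of control 2 was not tested.

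The genes most like 4 of the members were found by Pearson's r of log2(CPM + 10) over 43 sums of 16 classes or stages. They are given without a p, since the sums share libraries and depth. Cxcl2 was most like Cd14 (r = 0.953), Acod1 (0.929) and Il1rn (0.927), and Cxcl3 most like Cd14 (0.965), Clec4n (0.911) and Acod1 (0.905). Cxcr2 was most like Stfa2l1 (0.982), Fpr1 (0.976) and Cstdc4 (0.970). Cxcr4 was most like Sgms2 (0.903), Hdc (0.891) and Csf3r (0.880). Acod1 defined activation, and Stfa2l1, Hdc and Csf3r were neutrophil markers. No likeness is given for Cxcl1, whose highest sum came from 2 cells, or for Cxcl12, which stayed at or under 0.432 CPM in these sums.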

How the data were processed

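The authors deposited 1 filtered matrix of UMI counts per gene and barcode for each of 4 libraries, made with Cell Ranger 7.0.0 on mm10, per the submitters' processing notes. The count values were used as deposited. Barcodes with fewer than 200 genes or 10% or more mitochondrial UMIs were dropped (1576), then those with the highest Scrublet doublet scores, 0.8% per 1000 barcodes (2418), since the automatic limit marked 0 to 2.32%. Each marker's log2 level per 10000 UMIs was capped at its 0.75 quantile and averaged over its list. A cell took its highest class, with a score of at least 0.25 and 3 markers seen, and 95.1% of cells took the same class by Leiden clusters made without the members (scanpy 1.11.5). Scores are continuous: 48 to 794 mature neutrophils per library lay within 0.05 of the activation limit. UMIs were summed per library and class and tested over all genes with the quasi-likelihood test of edgeR 4.0.16 (filterByExpr, TMM, Benjamini-Hochberg). DESeq2 1.42.0 was an alternative. The SE after each ± comes from the edgeR fit and includes the spread between libraries. Members and lists were chosen with earlier results of these data known. The 4 most abundant genes of a list in mature neutrophils were named, and other genes of lists only with counts of 5 or fewer. Markers Gm5483 and Myh4 had no UMI or were not found.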

Additional observations from a re-analysis of the deposited data

How the results depend on the processing

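Deviations of libraries of the same number from their group means correlated at -0.108 in all cells and 0.0474 in neutrophils. The correlation was 0.0393 in mature neutrophils, 0.235 in immature neutrophils and -0.0739 in monocyte-macrophages. With 2 libraries per group, these values cannot tell whether libraries of the same number were handled together. With the number as a replicate block, 0 members were called for adenosine in each class, and with the crossed replicate block 0 in all cells. Without the filter on low counts 3 members (Cxcl1, Cxcl2 and Cxcl3) were called for adenosine in neutrophils, among 653 of 20927 genes. In mature and in immature neutrophils 2 were (Cxcl2 and Cxcl3), among 465 of 19268 and 96 of 17891 genes. DESeq2 called 1 (Cxcl3) in monocyte-macrophages, among 4 of 12789, the cause not being tested. Leaving out 1 library in these comparisons leaves a lone library in its group, assumed to vary like the other pair. Without control 1, control 2 is the lone control. Members called in such fits are therefore not counted. Some log2 differences changed sign. Leaving out 1 library each, adenosine minus control ran from -5.86 to 1.38 for Cxcl1 and -2.64 to 1.39 for Cxcl12 in all cells, -9.40 to 1.93 for Cxcl1 and -1.37 to 0.29 for Cxcr4 in neutrophils, -8.44 to 2.08 for Cxcl1 and -0.89 to 0.43 for Cxcr4 in mature neutrophils, and -0.44 to 0.57 for Cxcr4 in monocyte-macrophages. All upper ends but the last came without control 2. The difference between cell types ran from -6.11 to 2.63 for Cxcl1, -3.90 to 0.053 for Cxcl3 and -1.46 to 0.34 for Cxcr4. It became -0.025 for Cxcl1 by DESeq2 and -0.047 for Cxcr2 with doublets kept. With resting cells only, Cxcr4 became 0.15. Cxcl2 from pre-neutrophils to immature cells became -0.29 by clusters. The cause was not tested. The stage and cell type comparisons called 2 to 5 members under every alternative run, beside 17.1% to 72.8% of all genes tested in the main fits. With that background the counts are not read as a result about the members. The members called were not always the same ones: the report names where calls of Cxcl3, Cxcr2 and Cxcr4 were lost or gained. Depth limits Cxcl1, with 3 to 157 UMIs per library, and Cxcl12, with 4 to 33.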

Other observations

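Cxcr2 was found in 1 small class outside neutrophils. Basophils or mast cells, gated on genes such as Mcpt8, Cpa3 and Ms4a2, had 186 CPM in control 1, 158 in adenosine 1 and 214 in adenosine 2, from 47, 47 and 43 cells, above monocytes at 7.98, 4.37 and 2.34. The same cells had mature neutrophil markers at a summed 2344, 2779 and 3863 CPM. For every 1000 of those marker UMIs they had 79.5, 56.7 and 55.3 Cxcr2 UMIs, against 61.0, 55.6 and 50.6 in resting mature neutrophils and 3.29, 2.52 and 1.35 in monocytes. The part of neutrophil RNA in this signal was not tested further.

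Cxcr5, a receptor for Cxcl13 known from B cells, was in mature neutrophils at 13.3 CPM in control 1, 119.6 in control 2, 9.29 in adenosine 1 and 9.23 in adenosine 2. It rose from immature to mature neutrophils by 3.58 ± 0.30 (log2, SE, n = 4 libraries, edgeR), with 0.681, 6.63, 0.790 and 1.56 in immature cells. In control 2 resting cells had 124 and activated cells 117, and the edgeR difference of activated minus resting cells was 0.39 ± 0.36 (adjusted p = 0.537).

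Endothelial cells of control 2 had 44 Cxcr4 UMIs in 5 cells, or 419.7 CPM, and those of adenosine 1 had 2 in 6 cells, or 22.2 CPM.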
